A study of Mus musculus with 4 samples.

Results

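The voltage-gated and potassium channel genes were taken as every gene whose symbol names a voltage-gated sodium channel subunit (Scn, a number, and a or b), a voltage-gated calcium channel subunit (Cacna1, Cacna2d, or Cacnb), or a potassium channel subunit (Kcn, a letter, and a number). The rule found 112 of the 33565 genes listed, and all 112 were annotated as protein-coding. They were 14 sodium channel genes, 18 calcium channel genes, and 80 potassium channel genes. The rule used names only and no measured value. It leaves out genes with other naming patterns, such as Kcnma1, Kcnab1, and the Hcn genes.

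RNA was profiled in single cells from 3 mouse lines by CapSeq, a plate-based split-pool method in which the barcode given at reverse transcription, BC1, marks the line. Neuro-2a (N2a) is a neuroblastoma line and occupied BC1 columns 1 to 4, NIH/3T3 is an embryonic fibroblast line and occupied columns 5 to 8, and the mouse embryonic stem cells (mESCs) were of the E14TG2a line and occupied columns 9 to 12. None of the lines was treated with an agent under study. N2a and NIH/3T3 cells were grown with 10% FBS. The mESCs were grown on 0.15% gelatin with 15% FBS, 1000 U/ml LIF, and the inhibitors CHIR99021 at 3 µM and PD0325901 at 1 µM, so that the culture medium and the line cannot be told apart. Each line was represented by 1 sample and had no replicate. No p-value could therefore be given for a difference between lines, and the 32 BC1 sequences of a line are aliquots of 1 sample and not replicates.

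After removal of barcodes with fewer than 1000 UMIs or more than 20% mitochondrial UMIs, 2323 N2a cells with 17955221 UMIs, 2037 NIH/3T3 cells with 11697865 UMIs, and 2137 mESCs with 12322098 UMIs were retained. The median was 6185 UMIs per cell in N2a, 4863 in the NIH/3T3 cells, and 4803 in the mESCs, and 0 barcodes were shared between lines. Levels are CPM (UMIs of a gene divided by all UMIs and scaled to a common total), from the UMIs summed over the cells of a line, with 95% exact Poisson intervals, and shares of cells have 95% exact binomial intervals. Both cover counting error only. A count of 0 allows up to 3 UMIs, which is 0.167 CPM in N2a, 0.256 CPM in the NIH/3T3 cells, and 0.243 CPM in mESCs. Col1a2, Cav1, and Prrx1 were at 233 CPM or above in NIH/3T3 and below 1 CPM elsewhere, and Zfp42, Dppa5a, and L1td1 were at 614 CPM or above in mESCs. In N2a, Hand2, a gene of sympathetic neuroblasts, was at 404 CPM, but Gata3 of the same lineage was low, at 3.84 CPM, below its 8.44 CPM in mESCs. The labels of NIH/3T3 and mESCs therefore had all their markers, whereas the markers given here for N2a were divided.

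Voltage-gated channels open when the membrane potential changes. Sodium channels carry the rising phase of the action potential, calcium channels couple depolarization to secretion, contraction, and transcription, and potassium channels set the resting potential and end the action potential. The pore of a sodium or calcium channel is 1 large alpha subunit, joined by smaller auxiliary subunits, whereas a potassium channel pore is assembled from several separate subunits. Many neuronal channel genes carry a site called RE1, which is bound by the repressor REST, a zinc finger protein that keeps neuronal genes low in non-neuronal and pluripotent cells.

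RE1-like sequences near the channel genes are shown because they are a feature that the naming rule did not use. Both strands of GRCm39 were searched for TTCAGCACC and GGACAG, separated by 2 bases, within 5000 bases of the gene start, with up to 2 mismatches over these 15 positions. A match was found for 12 of the 112 channel genes (10.7%), for 4.72% of all 21303 protein-coding genes, and for 4.50% of all genes with a position. Of the 12, 6 were expressed at 5 CPM or more in at least 1 line. Their sequences follow, with the searched letters in capitals:
Scn2a: TTCAGCACCacGGACAG
Kcnh4: TTCAGCACCctGGACAG
Cacna1b: GTCAGCACCacGGACAG
Scn3b: CTCAGCACCacGGACAG
Kcnj6: TTCAGCACCaaGGCCAG
Cacna1i: TGCAGCTCCcaGGACAG
The Scn2a site at chr2:65450308-65450324 lay upstream of the gene, at -786 bases from the start. The Kcnh4 site at chr11:100649837-100649853, the Cacna1b site at chr2:24652095-24652111, the Kcnj6 site at chr16:94796578-94796594, and the Cacna1i site at chr15:80174087-80174103 were intronic. The Scn3b site at chr9:40181040-40181056 was in an untranslated exonic part. The Scn2a, Cacna1i, and Cacna1b sites were on the plus strand, and the other 3 were on the minus strand. The Scn2a and Kcnh4 sites had 0 mismatches, the Cacna1b, Scn3b, and Kcnj6 sites 1, and the Cacna1i site 2. The levels of these 6 genes are given below with their families. A match describes the sequence and is not evidence of binding.

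With a gene called expressed at 5 CPM or more, 29 of the 112 channel genes were expressed in N2a (25.9%), 9 in the NIH/3T3 cells (8.04%), and 23 in the mESCs (20.5%). The same threshold was passed by 47.2% of protein-coding genes in N2a, 45.6% of them in the NIH/3T3 cells, and 48.5% in the mESCs, and by 31.3%, 30.4%, and 32.1% of all genes listed. The channel genes were thus expressed less often than protein-coding genes in each line, and the gap was widest in NIH/3T3. Their median level was 0.446 CPM in N2a, compared with 0.171 CPM in NIH/3T3 and 0.609 CPM in the mESCs, compared with 3.17, 2.05, and 4.22 CPM over protein-coding genes.

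In total, 43 channel genes were expressed in at least 1 line. Of these, 29 were expressed in 1 line alone, which was N2a for 17, mESC for 10, and NIH/3T3 for 2. A further 10 were expressed in a pair of lines, which was N2a and mESC for 7, NIH/3T3 and mESC for 2, and N2a and NIH/3T3 for 1. Only 4 passed 5 CPM in all 3 lines, namely Cacna1a, Kcnq5, Kcnk2, and Kcnq1. They made up 3.57% of the channel genes, against 38.4% of protein-coding and 24.8% of all genes expressed in all 3 lines. Among genes expressed in any line, 9.30% of the channel genes were shared by all 3, against 67.6% of protein-coding genes and 64.1% of all genes. The threshold cuts through a continuous range, as the members just above it were Kcns3 (5.12 CPM) and Cacna1i (5.24 CPM), both in N2a, and those just below were Kcnd1 (4.54 CPM) and Cacna2d2 (4.38 CPM), both in mESCs. Of the remaining 69, 23 were between 1 and 5 CPM in their highest line, 36 were below 1 CPM in every line, and 10 had no UMI in any cell, including Kcna2, Kcna3, Kcnj2, Kcnj8, and Kcnj11. At a threshold of 1 CPM, 12 channel genes passed in all 3 lines, as did 47.2% of protein-coding genes. Of the 43 expressed genes, 23 overlap a gene on the opposite strand, and without those 14 remained in N2a, 4 in NIH/3T3, 7 in mESCs, and 1 (Kcnq5) in all 3 lines, out of 60 channel genes. Among protein-coding genes without such an overlap, 37.3%, 35.8%, 38.8%, and 29.5% passed.

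A channel gene was called enriched in a line when it was at 5 CPM or more and its CPM + 1 was at least 4 times that of both other lines. N2a had 14 enriched channel genes (12.5%), mESCs 7 (6.25%), and NIH/3T3 3 (2.68%). By the same rule, 3.14% of protein-coding genes were enriched in N2a, 4.28% in mESCs, and 2.62% in NIH/3T3, and 2.34%, 3.15%, and 2.06% of all genes. The share of channel genes was therefore above the background in N2a, near it in NIH/3T3, and somewhat above it in mESCs. With a pseudocount of 5 CPM, the numbers enriched were 8 in N2a, 3 in mESCs, and 1 in NIH/3T3, where 1.86%, 2.35%, and 1.77% of protein-coding genes were enriched. The share of channel genes in mESCs was then near the background. Of the 43 expressed genes, 25 were highest in N2a (58.1%), 14 in mESCs (32.6%), and 4 in NIH/3T3 (9.30%). The highest line was not resolved by counting error for Kcnj12, Kcnq1, and Kcns3, counted for N2a, or for Kcnk2, counted for NIH/3T3. Of the protein-coding genes expressed in any line, 34.4% were highest in N2a, 33.5% in mESCs, and 32.1% in NIH/3T3.

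**Figure D1:**
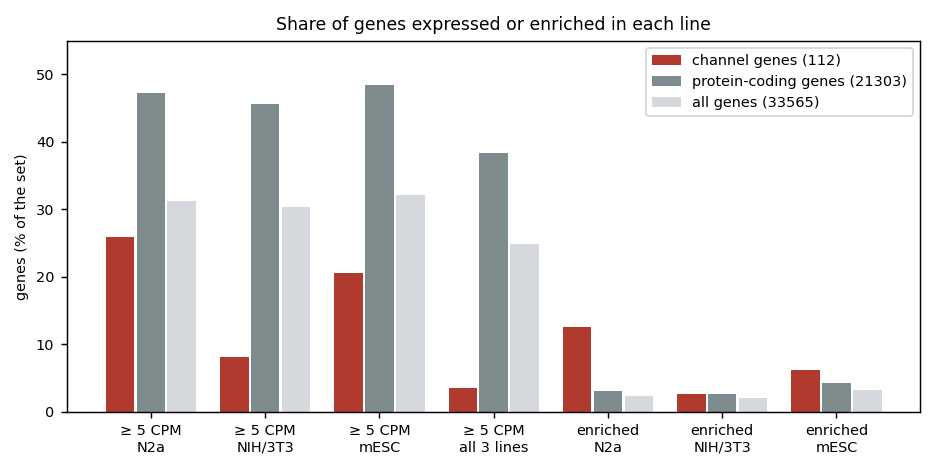
Percentage of genes at 5 CPM or more in each line and in all 3 lines, and percentage enriched in each line, for the 112 channel genes, the 21303 protein-coding genes, and all 33565 genes. The channel genes lie below both backgrounds for expression, with 3.57% against 38.4% of protein-coding genes in all 3 lines, and above them for enrichment in N2a, with 12.5% against 3.14%.

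Summed over the 112 genes, the level was 1743 CPM in N2a (1723 to 1762), 659 CPM in NIH/3T3 (645 to 674), and 618 CPM in mESCs (604 to 632). Without the genes that overlap an antisense gene, the sums were 764, 184, and 192 CPM, and NIH/3T3 was then no longer above mESCs. No interval was computed for these sums, so the order of NIH/3T3 and mESCs in them is not resolved. The genes left out include Cacna1c and Cacna1a. Across the 32 BC1 sequences, the sum ranged from 1405 to 2137 CPM in N2a, from 572 to 842 CPM in NIH/3T3, and from 475 to 790 CPM in the mESCs. The N2a aliquots were all above those of the other lines, whereas NIH/3T3 and mESC aliquots overlapped. A single gene carried much of each sum. Cacna1c accounted for 39.7% of the channel UMIs in N2a and 52.3% in NIH/3T3, and Cacna1a for 24.4% in mESCs. Without Cacna1c, the sum was 1051 CPM in N2a and 315 CPM in NIH/3T3, and without Cacna1a it was 467 CPM in mESCs.

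**Figure D2:**
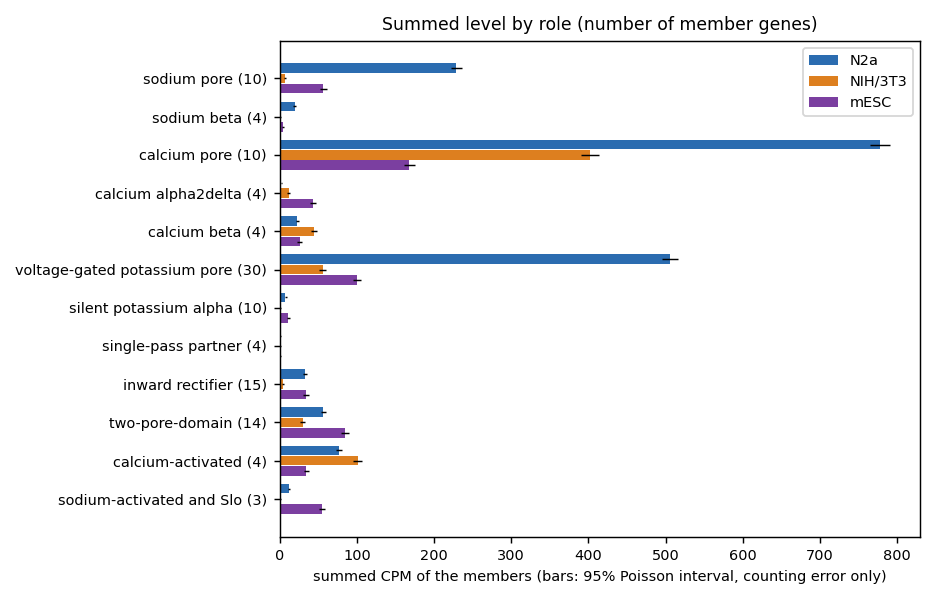
Summed CPM of the channel genes by role in each line, with 95% Poisson intervals for counting error and the number of genes of each role in parentheses. Pore-forming calcium and voltage-gated potassium channel genes carry most of the N2a sum, at 778 and 505 CPM, while mESCs have the highest sums of the calcium channel alpha2delta genes, at 42.8 CPM, and of the sodium-activated and Slo potassium channel genes, at 54.5 CPM.

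**Figure D3:**
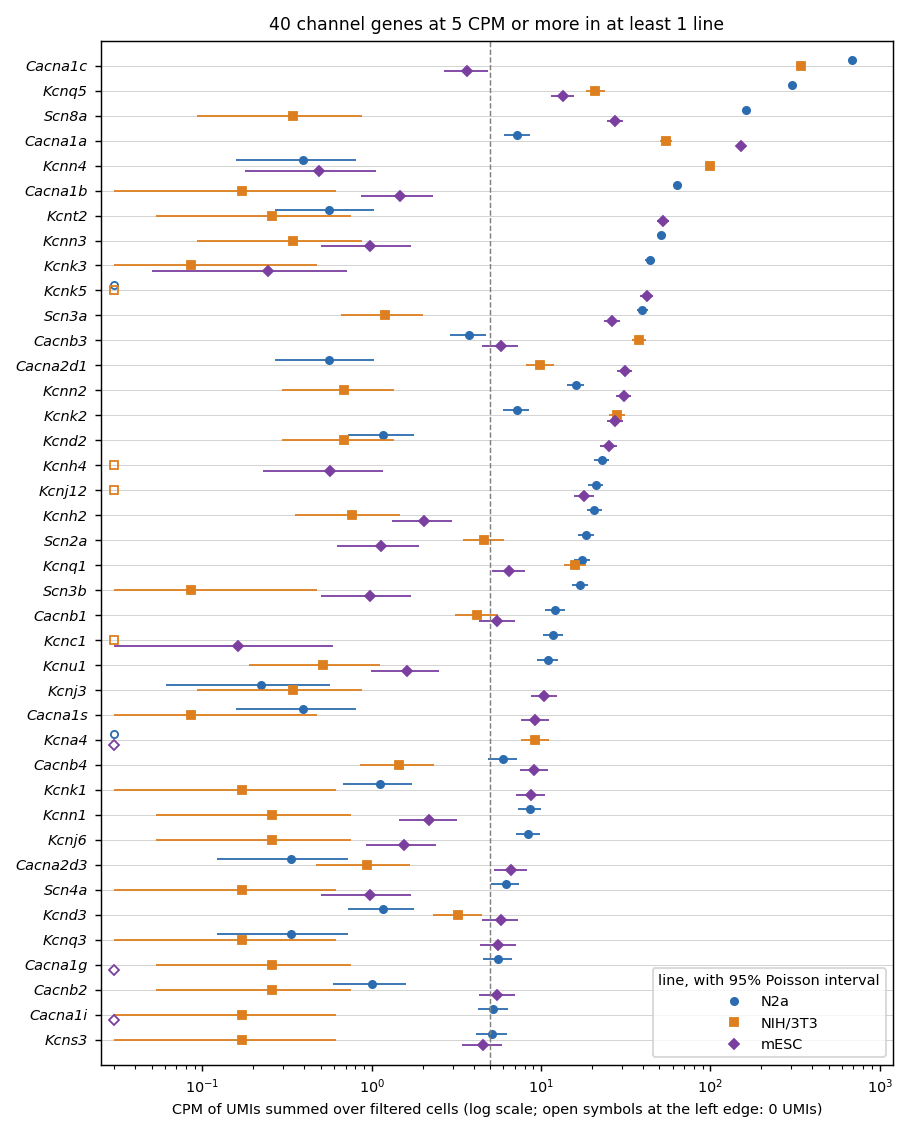
Levels of 40 of the 43 channel genes at 5 CPM or more in at least 1 line, in CPM on a log axis, with a point for each line and its 95% Poisson interval, ordered by the highest level. Open symbols at the left edge mark 0 UMIs and the dashed line marks 5 CPM. Many rows have a single point far to the right of the others, whereas the points of Kcnq1, at 17.5, 15.9, and 6.49 CPM, and of Cacnb1, at 12.1, 4.19, and 5.52 CPM, lie close together.

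The sodium channel genes were highest in N2a. The summed level of the 14 genes was 248 CPM in N2a, 7.78 CPM in the NIH/3T3 cells, and 61.3 CPM in mESCs, and no sodium channel gene reached 5 CPM in NIH/3T3. Scn8a, which encodes a pore concentrated at the axon initial segment and nodes, was at 162 CPM in N2a (156 to 168), 0.342 CPM in NIH/3T3 (0.0932 to 0.876), and 27.4 CPM in mESCs (24.6 to 30.5). The ratio of N2a to mESCs was 5.89 (5.26 to 6.61). At the 32 BC1 sequences, Scn8a ranged from 96.0 to 218 CPM in N2a and from 12.0 to 55.7 CPM in mESCs, so that these aliquots did not overlap.

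Scn3a, a pore abundant in embryonic brain, was at 39.6 CPM in N2a (36.7 to 42.6), 1.20 CPM in NIH/3T3 (0.654 to 2.01), and 26.2 CPM in mESCs (23.4 to 29.2). It was higher in N2a than in mESCs by a ratio of 1.51 (1.32 to 1.73), but the BC1 sequences of both lines overlapped. Scn2a, a pore of central neurons with an RE1-like sequence, was at 18.5 CPM in N2a (16.6 to 20.6), 4.62 CPM in NIH/3T3 (3.47 to 6.02), and 1.14 CPM in mESCs (0.621 to 1.91). NIH/3T3 was the second line here, with a ratio of N2a to NIH/3T3 of 4.02 (3.01 to 5.46). Scn2a was also the leading sodium channel gene of NIH/3T3, with 66.7% of the UMIs of the 10 pore genes.

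Scn4a, the skeletal muscle pore, was at 6.18 CPM in N2a, compared with 0.171 CPM in NIH/3T3 and 0.974 CPM in the mESCs. Of the 4 beta subunit genes, which encode small membrane proteins that modulate the pore, Scn3b alone passed 5 CPM. It was at 17.0 CPM in N2a, 0.0855 CPM in the NIH/3T3 cells, and 0.974 CPM in mESCs.

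Among the calcium channel genes, the leading pore gene was Cacna1c in N2a and NIH/3T3 and Cacna1a in mESCs. Cacna1c, the L-type pore of heart and brain, was at 692 CPM in N2a (679 to 704), 345 CPM in NIH/3T3 (334 to 355), and 3.65 CPM in mESCs (2.66 to 4.89). The ratio of N2a to NIH/3T3 was 2.01 (1.94 to 2.08), and the ratio of N2a to mESCs was 189 (141 to 260). Across the BC1 sequences, Cacna1c ranged from 522 to 942 CPM in N2a, from 282 to 487 CPM in NIH/3T3, and from 0 to 8.22 CPM in mESCs. The 3 ranges did not overlap. Cacna1c overlaps Dcp1b on the opposite strand, which was at no more than 33.7 CPM in any line.

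Cacna1a, the P/Q-type pore of presynaptic terminals, had the reverse order. It was at 7.24 CPM in N2a (6.05 to 8.60), 54.8 CPM in NIH/3T3 (50.6 to 59.2), and 151 CPM in mESCs (144 to 158). The ratio of mESCs to NIH/3T3 was 2.75 (2.51 to 3.01), and the ratio of mESCs to N2a was 20.8 (17.4 to 25.1). Its BC1 ranges were 0 to 16.8 CPM in N2a, 18.1 to 98.5 CPM in NIH/3T3, and 66.3 to 210 CPM in mESCs, so that NIH/3T3 and mESCs overlapped and N2a was separate from both.

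Cacna1b, the N-type presynaptic pore with an RE1-like sequence, was at 63.8 CPM in N2a (60.2 to 67.6), 0.171 CPM in NIH/3T3 (0.0207 to 0.618), and 1.46 CPM in mESCs (0.866 to 2.31). Its N2a BC1 sequences, from 41.4 to 95.8 CPM, were all above the highest mESC value of 7.52 CPM. The T-type pores Cacna1g and Cacna1i, which open at low voltage, were at 5.57 and 5.24 CPM in N2a, at 0.256 and 0.171 CPM in NIH/3T3, and had 0 UMIs in mESCs. Cacna1s, the L-type pore of skeletal muscle, was at 0.390 CPM in N2a, compared with 0.0855 CPM in NIH/3T3 and 9.25 CPM in the mESCs (7.63 to 11.1). It was the only pore gene besides Cacna1a to pass 5 CPM in mESCs. Its calls as expressed and enriched there depended on 73 cells described below, as it was at 2.34 CPM in the other 2064 mESCs.

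The auxiliary calcium channel genes were not distributed as the pores. Alpha2delta proteins are extracellular subunits that help deliver the pore to the surface, and beta subunits are cytoplasmic and also promote its surface expression. Cacna2d1 was at 0.557 CPM in N2a, 9.92 CPM in the NIH/3T3 cells, and 31.3 CPM in mESCs, and Cacna2d3 was at 0.334, 0.940, and 6.65 CPM. No alpha2delta gene reached 5 CPM in N2a, where the 4 genes summed to 2.23 CPM (1.59 to 3.03) beside 778 CPM of the pores. The beta gene Cacnb3 was at 3.73 CPM in N2a, 38.0 CPM in NIH/3T3 (34.6 to 41.7), and 5.76 CPM in mESCs, and was enriched in NIH/3T3. Cacnb1 was at 12.1 CPM in N2a, compared with 4.19 CPM in NIH/3T3 and 5.52 CPM in the mESCs. All 4 beta genes passed 5 CPM in mESCs, as did 48.5% of protein-coding genes. Cacnb4 was at 9.09 CPM (7.48 to 10.9) and Cacnb2 at 5.52 CPM (4.29 to 7.00) there. The mESC intervals of Cacnb2, Cacnb1 (4.29 to 7.00), and Cacnb3 (4.50 to 7.27) included 5 CPM, so their calls were not resolved by counting error.

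The 30 voltage-gated potassium pore genes summed to 505 CPM in N2a, 55.7 CPM in the NIH/3T3 cells, and 100.1 CPM in mESCs, and 12 of them were expressed in at least 1 line. Kcnq5, which contributes to the M current, a slow potassium current that restrains repetitive firing, led in N2a. It was at 302 CPM in N2a (294 to 311), 20.9 CPM in NIH/3T3 (18.4 to 23.7), and 13.4 CPM in mESCs (11.4 to 15.6). Its ratio of N2a to NIH/3T3 was 14.4 (12.7 to 16.5), and its N2a BC1 sequences, from 206 to 384 CPM, were all above the NIH/3T3 maximum of 40.1 CPM. Its relative Kcnq3 was at 0.334 CPM in N2a, compared with 0.171 CPM in NIH/3T3 and 5.60 CPM in the mESCs, and was thus low in the line where Kcnq5 was highest.

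Kcnq1, the channel of cardiac and epithelial cells, was expressed in all 3 lines, at 17.5 CPM in N2a (15.7 to 19.6), 15.9 CPM in NIH/3T3 (13.7 to 18.4), and 6.49 CPM in mESCs (5.15 to 8.08). The ratio of N2a to NIH/3T3 was 1.10 (0.918 to 1.33), so that the order of these lines was not resolved by counting error. Kcnq1 contains the antisense noncoding gene Kcnq1ot1, which reached 470.2 CPM, and the strand setting of the counts is not stated in the sources used here, so reads of the pair cannot be told apart with certainty.

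Kcnh4, with an RE1-like sequence, was at 22.8 CPM in N2a, 0 UMIs in NIH/3T3, and 0.568 CPM in mESCs. Kcnh2, the pore of the rapid delayed rectifier of heart, was at 20.6, 0.769, and 2.03 CPM in N2a, NIH/3T3, and mESCs. Both were enriched in N2a and separate from the second line at every BC1 sequence. Kcnc1, a fast delayed rectifier of rapidly firing neurons, was at 11.8 CPM in N2a, 0 UMIs in NIH/3T3, and 0.162 CPM in mESCs. It overlaps Sergef on the opposite strand, which reached 39.8 CPM.

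The Kcnd genes and Kcna4 encode A-type pores, whose currents inactivate quickly, and none of them passed 5 CPM in N2a. Kcnd2 was at 1.17 CPM in N2a, 0.684 CPM in the NIH/3T3 cells, and 25.1 CPM in mESCs (22.4 to 28.0), and Kcnd3 was at 1.17, 3.25, and 5.76 CPM. Kcnd1 was below 5 CPM in every line, at 3.17, 0.256, and 4.54 CPM, with a ratio of mESCs to N2a of 1.43 (0.972 to 2.11). Kcna4 was at 9.23 CPM in NIH/3T3 (7.57 to 11.1) with 0 UMIs in N2a and in mESCs, and was the only Kcna gene at 5 CPM or more. Its level in NIH/3T3 was 55.3-fold that of the limit of 3 UMIs in N2a and 37.9-fold that of the limit in mESCs. Against the observed 0 UMIs, the lower ends of the exact 95% intervals of the ratios were 44.2 and 30.3. Among the 10 silent alpha subunits, which form channels only together with other pores, Kcns3 alone passed, at 5.12 CPM in N2a, compared with 0.171 CPM in NIH/3T3 and 4.54 CPM in the mESCs. None of the 4 Kcne genes, which encode single-pass partners of potassium pores, passed 5 CPM.

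Channels gated by intracellular calcium differed by paralog. Kcnn4, the intermediate-conductance channel of blood cells, epithelia, and fibroblasts, was at 0.390 CPM in N2a (0.157 to 0.803), 99.8 CPM in NIH/3T3 (94.2 to 106), and 0.487 CPM in mESCs (0.179 to 1.06). It made up 98.7% of the calcium-activated channel UMIs of NIH/3T3. Kcnn3, a small-conductance channel, was at 51.5 CPM in N2a (48.2 to 54.9), 0.342 CPM in NIH/3T3 (0.0932 to 0.876), and 0.974 CPM in mESCs (0.503 to 1.70). The small-conductance genes Kcnn2 and Kcnn1 were also expressed in N2a, at 15.98 and 8.58 CPM, and Kcnn2 was at 30.9 CPM in mESCs. Each line thus had a different leading Kcnn gene, and the leading gene of N2a and NIH/3T3 was separate from the next line at every BC1 sequence.

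Kcnt2, a sodium-activated channel, was at 0.557 CPM in N2a (0.267 to 1.02), 0.256 CPM in NIH/3T3 (0.0529 to 0.749), and 52.7 CPM in mESCs (48.7 to 56.9). Its mESC BC1 sequences ranged from 22.4 to 121 CPM, all above the N2a maximum of 4.73 CPM. Kcnu1, known as a channel of sperm, was at 10.97 CPM in N2a, 0.513 CPM in the NIH/3T3 cells, and 1.62 CPM in mESCs.

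The tandem-pore genes encode background potassium channels that help to set the resting potential. Each line had a different leading gene, which was Kcnk3 in N2a, Kcnk2 in the NIH/3T3 cells, and Kcnk5 in the mESCs. Kcnk3 was at 44.1 CPM in N2a (41.1 to 47.3), 0.0855 CPM in NIH/3T3, and 0.243 CPM in the mESCs. Kcnk5 was at 42.1 CPM in mESCs (38.6 to 45.9) with 0 UMIs in N2a and NIH/3T3. This was 252-fold the limit of 3 UMIs in N2a and 164-fold that in NIH/3T3. Against the observed 0 UMIs, the lower ends of the exact 95% intervals of the ratios were 204 and 133. It had UMIs at all 32 mESC BC1 sequences, from 19.2 to 82.8 CPM. Kcnk2, a mechanosensitive channel, was expressed in all 3 lines, at 7.18 CPM in N2a (6.00 to 8.54), 28.2 CPM in NIH/3T3 (25.2 to 31.4), and 27.3 CPM in mESCs (24.5 to 30.4). NIH/3T3 and mESCs did not differ beyond counting error, with a ratio of 1.03 (0.884 to 1.20). Kcnk2 overlaps 2900042K21Rik on the same strand.

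Among the 15 inward rectifiers, which pass potassium more readily into the cell than out of it, 3 were expressed. Kcnj12 was at 21.1 CPM in N2a, 0 UMIs in NIH/3T3, and 18.0 CPM in mESCs, with a ratio of N2a to mESCs of 1.17 (0.987 to 1.39). The G protein-gated subunits were split between lines. Kcnj6, with an RE1-like sequence, was at 8.35 CPM in N2a, compared with 0.256 CPM in NIH/3T3 and 1.54 CPM in the mESCs, and Kcnj3 was at 0.223, 0.342, and 10.5 CPM.

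**Figure D4:**
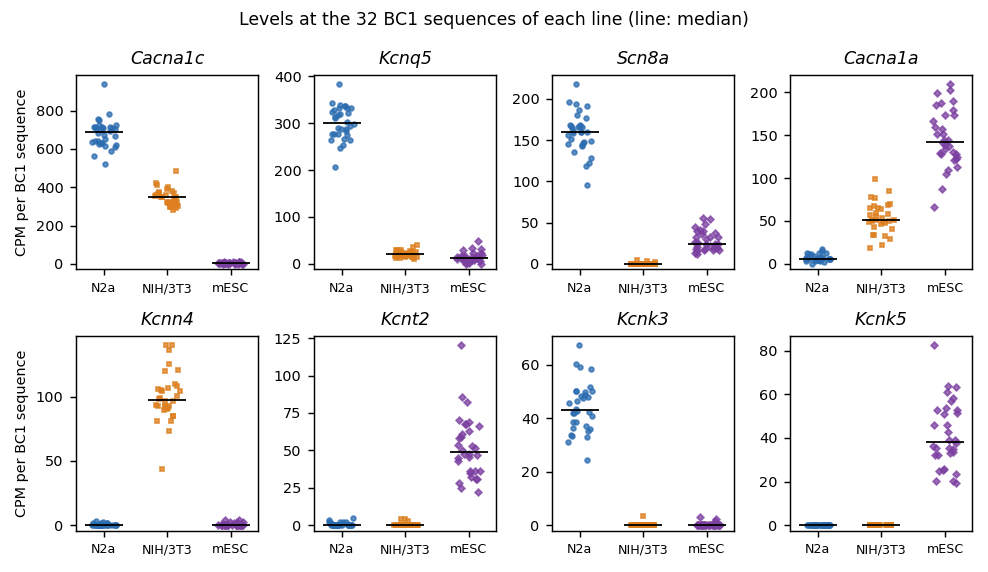
Levels of 8 channel genes at each of the 32 BC1 sequences of each line, in CPM, with the median as a horizontal line. Each point is an aliquot of 1 sample. The points of the highest line lie above all others for each gene shown except Cacna1a, for which NIH/3T3, from 18.1 to 98.5 CPM, overlaps mESCs, from 66.3 to 210 CPM.

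Over the 43 expressed genes, the aliquots of the highest line were entirely above those of the second line for 14 and overlapped for 29. The aliquots were separate in this way for 17% of the 12111 protein-coding genes at 5 CPM or more in any line. The genes that overlapped included those with few UMIs per aliquot. The channel genes at 5 CPM or more were long, with a median span of 111 kb, compared with 22.7 kb for the other channel genes and 29.3 kb for protein-coding genes expressed in any line. Levels of different genes were therefore also set against gene length, and the raw order of genes within a line holds for UMIs and not per length. Per 10 kb of gene span, the leading gene was Kcnn4 in NIH/3T3 (52.0 CPM per 10 kb) and Kcnk5 in mESCs (10.1 CPM per 10 kb). Cacna1c was then at 11.3 CPM per 10 kb in N2a and 5.65 CPM per 10 kb in NIH/3T3, below 3 shorter genes in each line. Across the 43 genes, the highest CPM had a Spearman rho of 0.10 with span (n = 43 genes of the same libraries).

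The promoters of Kcnk5 and Kcnn4 are shown because these genes led mESCs and NIH/3T3 per length. RefSeq windows on GRCm38.p6, from 250 bases before to 50 bases after the start, are printed with CG dinucleotides in capitals:
Kcnk5: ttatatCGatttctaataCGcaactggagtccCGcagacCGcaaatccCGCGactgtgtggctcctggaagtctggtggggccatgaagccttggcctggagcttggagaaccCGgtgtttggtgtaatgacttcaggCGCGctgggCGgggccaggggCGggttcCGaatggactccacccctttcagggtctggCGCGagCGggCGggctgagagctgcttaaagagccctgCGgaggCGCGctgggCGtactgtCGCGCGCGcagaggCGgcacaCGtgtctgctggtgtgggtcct
Kcnn4: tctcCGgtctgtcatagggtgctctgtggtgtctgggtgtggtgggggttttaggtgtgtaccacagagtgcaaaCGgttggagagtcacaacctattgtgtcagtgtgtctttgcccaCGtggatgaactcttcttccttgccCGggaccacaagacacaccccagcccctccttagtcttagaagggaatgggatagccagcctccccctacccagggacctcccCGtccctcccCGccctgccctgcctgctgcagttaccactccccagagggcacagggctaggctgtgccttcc
The Kcnk5 window, chr14:20181733-20182032 on the minus strand, held 26 CG dinucleotides, and the Kcnn4 window, chr7:24370013-24370312 on the plus strand, held 6. The median over all 32851 windows was 7. Windows were found for 80 of the 112 channel genes. The median was 16 CG dinucleotides over the 47 windows of 31 expressed channel genes and 8 over the 59 windows of 49 others. Some genes had several windows. No median was computed for expressed genes in general, so whether the difference is particular to channel genes was not tested.

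In single cells, channel transcripts were sparse. A cell had UMIs of a median of 5 channel genes in N2a and of 2 in each of the other lines. When each cell was thinned to 1000 UMIs, 77.5% of N2a cells (75.8 to 79.2), 46.1% of NIH/3T3 cells (44.0 to 48.3), and 42.8% of mESCs (40.7 to 44.9) held at least 1 channel UMI. The share in N2a was thus the highest at equal depth as well.

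Cacna1c had a UMI in 86.3% of N2a cells (84.8 to 87.6), 69.2% of NIH/3T3 cells (67.1 to 71.2), and 2.06% of mESCs (1.50 to 2.75). After thinning, the shares were 45.2%, 27.8%, and 0.468%. Kcnn4 had a UMI in 37.8% of NIH/3T3 cells (35.7 to 39.9), and in 0.301% of N2a cells and 0.281% of mESCs, which serve as the background. After thinning, Kcnn4 was in 9.87% of NIH/3T3 cells, 0% of N2a cells, and 0.0468% of mESCs. Kcnk5 had a UMI in 17.7% of mESCs (16.1 to 19.4) and in 0 of 2323 N2a and 0 of 2037 NIH/3T3 cells, which allows up to 0.159% and 0.181% by the exact interval. Free RNA in the pooled cells can give low shares in lines that do not express a gene, and its part in the levels below 1 CPM was not tested. Doublets were not called.

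Cacna1s UMIs were concentrated in few mESCs. They were found in 51 of 2137 mESCs (2.39%, 1.78 to 3.13), with up to 9 UMIs in a cell, whereas the same UMIs spread over cells by depth would have reached 5.13% of cells. After this was seen, the mESCs with at least 3 UMIs of 6 genes (Zscan4 genes and Tmem92), whose transcripts mark embryos at the 2-cell stage and a small fraction of mESCs in culture, were examined. There were 73 such cells (3.42% of mESCs, with 2.99% of their UMIs), and they held 86 of the 114 Cacna1s UMIs (75.4%, 66.5 to 83.0). Cacna1s was at 233 CPM in these cells (186 to 288) and 2.34 CPM in the other 2064 (1.56 to 3.39), a ratio of 99.5 (64.3 to 158). It had a UMI in 32 of the 73 cells and in 19 of the 2064. The interval of the 75.4% is binomial over UMIs. It and the intervals of levels and ratios treat UMIs as independent, although they were concentrated in few cells, so they are too narrow. This applies to the other intervals between these groups of cells as well.

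Kcnn2 was also higher in the 73 cells, at 325 CPM (270 to 389) against 21.8 CPM (19.3 to 24.7), with 120 of its 381 UMIs there. Kcnd2 was at 127 CPM (93.6 to 169) against 21.9 CPM, and Cacna2d1 at 130 CPM (96.0 to 173) against 28.3 CPM. Cacna1a was lower in these cells, at 81.3 CPM against 153 CPM, a ratio of 0.532 (0.358 to 0.762). Of the 18 channel genes with at least 80 UMIs in mESCs, 4 were at a ratio of 3 or more, as were 2.90% of the 10195 genes with this many UMIs. The 4 include Cacna1s, which prompted the comparison. It reached 80 UMIs only through the 73 cells, as the other 2064 held 28 of its UMIs. The count of 4 therefore describes these genes and is not independent of how the comparison was chosen. Cacna1s was in between, at 37.0 CPM, in the 72 cells with 1 or 2 UMIs of the 6 genes, and at 1.13 CPM in the 1992 cells with none. The cells were grouped by other genes, but this comparison was chosen after the values were seen, and cells of 1 sample are not replicates.

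**Figure D5:**
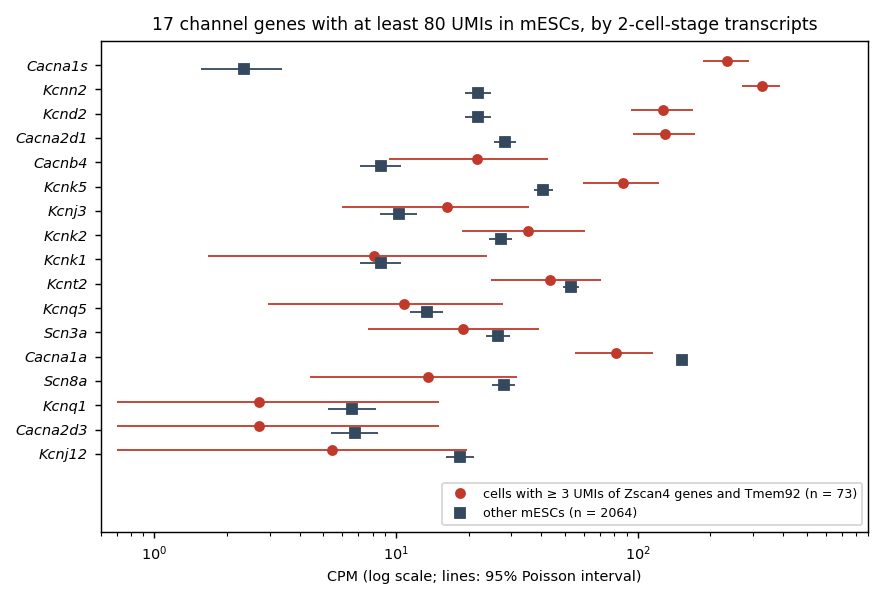
Levels of 17 of the 18 channel genes with at least 80 UMIs in mESCs, in CPM on a log axis with 95% Poisson intervals, in the 73 cells with at least 3 UMIs of Zscan4 genes and Tmem92 and in the other 2064. Cacna1s and Kcnn2 have the widest gaps, with ratios of 99.5 and 14.9.

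Genes whose products bind or resemble the channels were listed with earlier results known. Over all 21303 protein-coding genes, 12111 were expressed in at least 1 line. Of 7 sodium channel partners, 5 were. Fgf14, a cytoplasmic regulator of the pores, was at 164 CPM in N2a, 1.88 CPM in the NIH/3T3 cells, and 2.11 CPM in mESCs. Its relative Fgf13 was at 0.891, 0.684, and 6.17 CPM. Ank3, the scaffold of the axon initial segment that anchors sodium and Kcnq channels, was at 1356 CPM in N2a, compared with 354 CPM in NIH/3T3 and 36.8 CPM in the mESCs, and Ank2 was at 419, 291, and 100.5 CPM. Nedd4l, a ubiquitin ligase, was at 1.45 CPM in N2a, 257 CPM in the NIH/3T3 cells, and 129 CPM in mESCs.

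Of 15 calcium channel partners, 7 passed 5 CPM in N2a, 1 of these also in NIH/3T3 and another also in mESCs. The share in N2a was near the 47.2% of protein-coding genes that passed there. The shares in NIH/3T3 and mESCs were below the 45.6% and 48.5% that passed in those lines. Of the 15, 4 were enriched in N2a, as were 3.14% of protein-coding genes. Stac, an adaptor that binds L-type pores, was at 61.8 CPM in N2a, 0 UMIs in NIH/3T3, and 0.243 CPM in mESCs. Gem, a small GTPase that inhibits calcium channels through their beta subunits, was at 82.5, 5.64, and 1.70 CPM, and its relative Rrad was at 5.35, 0.0855, and 0.406 CPM. Cacng3, whose product is an auxiliary subunit of AMPA receptors, was at 235 CPM in N2a and 0.342 and 0.325 CPM in the other lines. Stac2 was at 12.5 CPM, Cacng7 at 24.7 CPM, and Cacng8 at 8.86 CPM in N2a, and Cacng7 was at 12.0 CPM in mESCs.

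Of 16 potassium channel partners, 9 were expressed in at least 1 line, with 6 in N2a, 4 in the NIH/3T3 cells, and 6 in the mESCs. The share in any line was near that of protein-coding genes, 12111 of 21303. The shares in each line were below the 47.2%, 45.6%, and 48.5% of protein-coding genes that passed there. Kcnma1, the large-conductance calcium-activated pore, was at 99.02 CPM in N2a, compared with 1.54 CPM in NIH/3T3 and 7.39 CPM in the mESCs. Its beta subunit gene Kcnmb4 was at 52.7, 7.95, and 19.1 CPM, whereas Kcnmb2 was at 0.613, 11.3, and 0.730 CPM and was enriched in NIH/3T3. The cytoplasmic beta gene Kcnab2 was at 26.0, 59.2, and 1.87 CPM, and Kcnab1 was at 11.3 CPM in N2a. Partners of the Kcnd pores were low, with Dpp6 at 7.79 CPM and Kcnip2 at 6.82 CPM in mESCs, Kcnip3 at 14.8 CPM in N2a, and Dpp10 between 6.50 and 9.82 CPM in all 3 lines.

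Of 11 related pore and subunit genes outside the naming rule, 8 were expressed in at least 1 line, beside 12111 of the 21303 protein-coding genes. The sodium leak channel gene Nalcn was at 0.835 CPM in N2a, 0.171 CPM in the NIH/3T3 cells, and 30.0 CPM in mESCs (27.05 to 33.2). Its partner Unc79 was at 257, 0.769, and 1.30 CPM in N2a, NIH/3T3, and mESCs, and Unc80 was at 93.1, 0.684, and 0.974 CPM. The pore was therefore highest in mESCs and its partners in N2a. All 3 had their lowest value in NIH/3T3, but its interval overlapped that of the next line for each gene. For Unc79, these intervals were 0.352 to 1.46 CPM in NIH/3T3 and 0.742 to 2.11 CPM in mESCs. For Unc80, they were 0.295 to 1.35 CPM and 0.503 to 1.70 CPM. The pacemaker channel genes Hcn2 and Hcn3 were at 20.6 and 10.5 CPM in N2a and below 5 CPM elsewhere. The proton channel gene Hvcn1 was at 17.1 CPM in mESCs, and the endolysosomal channel gene Tpcn1 was highest in NIH/3T3, at 57.0 CPM. Its relative Tpcn2 was at 9.15 CPM in NIH/3T3 (7.50 to 11.1) and 7.96 CPM in N2a (6.71 to 9.38), and these intervals overlapped.

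Rest was at 51.5 CPM in N2a (48.2 to 54.9), 119 CPM in NIH/3T3 (112 to 125), and 510 CPM in mESCs (498 to 523), and was enriched in mESCs. All 8 genes of the list of the REST repressor complex passed 5 CPM in every line, as did 38.4% of protein-coding genes. Rcor1 was at 115, 120, and 116 CPM, Rcor2 at 20.7, 25.5, and 51.5 CPM, and Rcor3 at 90.3, 38.3, and 12.3 CPM in N2a, NIH/3T3, and mESCs. Kdm1a was at 162, 62.5, and 257 CPM, Hdac1 at 147, 178, and 242 CPM, Hdac2 at 157, 145, and 125 CPM, and Ehmt2 at 45.6, 44.3, and 49.8 CPM. The 6 expressed channel genes with an RE1-like sequence passed 5 CPM in N2a alone. Their place as highest in N2a follows from that and adds nothing to it. Of all 43 expressed channel genes, 25 (58.1%) were highest in N2a. The other 6 genes with such a sequence were at 2.43 CPM or below in every line. Among them, Kcnh7 was highest in mESCs, at 2.43 CPM, as was Kcnk12, at 0.243 CPM, and Kcnj13 was highest in NIH/3T3, at 0.513 CPM. Cacna2d4, Kcnh8, and Kcnt1 were highest in N2a, at 1.17, 0.891, and 0.223 CPM. The Kcnk12 value is the limit of 3 UMIs, and Kcnt1 was at 0.171 and 0.162 CPM in NIH/3T3 and mESCs, so these orders rest on few UMIs. Whether Rest acted on any of these genes was not tested.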

How the data were processed

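UMI counts of 3 lines were analysed, each as 1 sample of a shared library. The authors trimmed and aligned the reads and counted UMIs with STARsolo on GRCm39 with GENCODE M30, and the deposited values are raw counts per gene and barcode, without a cell filter. The feature mode and strand setting are not given in the sources used here. Of 324 protein-coding genes that lie inside a gene of the same strand, 80.9% had no UMI, against 14.2% of 19992 without such an overlap, so overlapping genes may have lost reads. Of the 43 expressed channel genes, 23 overlap an antisense gene and 2 (Kcnk2 and Kcnd3) a gene on the same strand.

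Cells were kept at 1000 UMIs or more and 20% or fewer mitochondrial UMIs, following the study. The UMIs were summed per line and divided by the total to give CPM. Ratios are of CPM with exact intervals, and the enrichment rule added a pseudocount of 1 CPM. A fold against 0 UMIs used 3 UMIs per library. Totals ranged from 11697865 to 17955221 UMIs, so 1 UMI was 0.0557 to 0.0855 CPM. With 1 sample per line, no p-value was computed. The pooled matrix, an output of the same reads, was used only as an alternative. Genes named were those at 5 CPM or more in at least 1 line, at most 45, with full values for those shared by all lines and the 3 highest sodium, calcium, voltage-gated potassium, and other potassium genes. The levels of 3 of the channel genes and of 1 marker are not reported here, and counts and sums include them. The channel genes, the partner lists, and the markers were chosen with earlier results of these data known. Gene positions were read from GENCODE M39 (GRCm39), which held 32953 of the 33565 identifiers, and promoter windows from RefSeq (GRCm38.p6). The tools were matplotlib 3.10.9, pandas 2.3.3, scipy 1.17.1, and numpy 2.4.6 under Python 3.11.15. The levels, intervals, and enrichment rule were tested on simulated data.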

Additional observations from a re-analysis of the deposited data

How the results depend on the processing

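Sample and line could not be separated with 1 sample per line, and counting error alone was estimated. The counts of expressed channel genes depended on the threshold. At 1 CPM they were 46 in N2a, 19 in NIH/3T3, 49 in the mESCs, and 12 in all 3 lines, and at 10 CPM 13 in mESCs and 1 in all 3 lines. With limits of 5 cells and 10 raw UMIs in a line, adapted from a gene filter that the study applied after normalization, they were 53, 20, 52, and 15. The number enriched was 8 in N2a and 3 in mESCs at a ratio of 10, 11 in mESCs at a ratio of 2, and 8 in N2a, 1 in the NIH/3T3 cells, and 3 in mESCs with a pseudocount of 5 CPM. The summed level was 1704 CPM in N2a over all barcodes, 1694 CPM in N2a and 635 CPM in mESCs as a mean over cells, and 628 CPM in NIH/3T3 and 583 CPM in the mESCs without genes overlapping another on the same strand. A pair of alternatives was chosen after the data were seen. Without genes overlapping an antisense gene, 14 in N2a, 4 in NIH/3T3, 7 in mESCs, and 1 in all 3 lines were expressed, 3 were enriched in mESCs, and the sums were 764, 184, and 192 CPM. This follows in part from fewer genes being counted. Without the 73 mESCs with 2-cell-stage transcripts, the mESC sum was 596 CPM. Over all barcodes, the log2 ratio of NIH/3T3 to mESC for Kcnk2 changed sign, to -6.90e-05. Of the other values, 81 of these summary values and 370 of those of single genes stayed within their limits, and 34 of single genes moved, mostly with the pseudocount of 5 CPM. No paired analysis was possible because each line has 1 sample and no test was made.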
